A study of Mus musculus with 15 samples.

Results

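Interferon response genes are the genes that cells turn on when interferon, a secreted antiviral signal, binds its receptors. The set described here held 48 such genes, listed by mouse gene symbol, and a row of the deposited count matrix was taken for each through its Entrez ID. All 48 were found among 35794 Entrez IDs, and all 48 passed a filter on low counts that left 15208 genes for testing. Poly(A) RNA of perigonadal fat, the depot beside the gonads, had been sequenced in C57BL/6 mice aged 14 weeks. Lean mice (5 libraries) ate chow and obese mice (5 libraries) a 60% high-fat diet, both starting at an age of 8 weeks. Weight loss mice (4 libraries) had 5 weeks of that high-fat diet and then 1 week of chow. The mice carried no transgene or deletion that the labels name, and their sex is not given in the sources used here. The comparisons ask what high-fat feeding, and then the return to chow, did to these genes.

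Type I interferons act through the receptor chains IFNAR1 and IFNAR2, and interferon gamma through IFNGR1 and IFNGR2. Both signal through JAK kinases and STAT proteins. Type I signalling assembles a complex with STAT2 and IRF9 that binds the interferon-stimulated response element (ISRE), while interferon gamma acts through the gamma-activated site (GAS). In fat, both adipocytes and the macrophages among them can respond to these signals.

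The promoters of the members show these elements as letters. RefSeq (GRCm38.p6, the assembly behind the mm10 coordinates of the labels) gave a promoter for 36 of the 48 members, and the 250 bases before each RefSeq start were searched on both strands for the ISRE core (GAAA, any 2 bases, GAAA) and the GAS core (TTC, any 3 bases, GAA). A match to one core is not in itself a match to the other, though matches to both can overlap. The ISRE core stood in 17 of 36 members (47.2%) and in 936 of 27025 genes with a promoter in the table (3.46%). The GAS core stood in 12 of 36 members (33.3%) and in 2197 of the 27025 genes (8.13%). In 6 members both were found and in 13 neither. All 7 of the interferon-inducible GTPases with a promoter held the ISRE core and 4 of them the GAS core, against 5 and 2 of 8 among the IFIT, OAS and MX genes. A match describes the letters only and shows no binding. Ifit3 is shown because it is 1 of 2 members that passed the test below, and its near-copy Ifit3b because reads of both can be confused. Isg15, Gbp5 and Igtp were picked after their matches were seen, as examples of overlapping ISRE cores and of an ISRE core beside a GAS core. The entries run 5′ to 3′ on the gene's strand, with matches to either core in capitals.
Ifit3 (chr19:34583279-34583528, plus strand): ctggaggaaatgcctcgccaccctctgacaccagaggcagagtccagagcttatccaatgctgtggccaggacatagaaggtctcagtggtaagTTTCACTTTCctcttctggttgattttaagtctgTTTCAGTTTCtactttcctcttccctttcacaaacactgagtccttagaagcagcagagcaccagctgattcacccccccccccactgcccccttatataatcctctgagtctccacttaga
Ifit3b (chr19:34607707-34607956, plus strand): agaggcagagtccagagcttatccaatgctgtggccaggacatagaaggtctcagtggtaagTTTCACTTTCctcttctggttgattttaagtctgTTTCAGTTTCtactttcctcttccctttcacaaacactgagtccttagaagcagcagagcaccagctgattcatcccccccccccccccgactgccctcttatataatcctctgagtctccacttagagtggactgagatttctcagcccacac
Isg15 (chr4:156200819-156201068, minus strand): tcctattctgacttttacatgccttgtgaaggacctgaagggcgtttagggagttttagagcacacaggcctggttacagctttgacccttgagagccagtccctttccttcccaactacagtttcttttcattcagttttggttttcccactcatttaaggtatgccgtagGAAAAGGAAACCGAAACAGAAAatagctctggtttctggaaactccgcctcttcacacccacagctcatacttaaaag
Gbp5 (chr3:142496684-142496933, plus strand): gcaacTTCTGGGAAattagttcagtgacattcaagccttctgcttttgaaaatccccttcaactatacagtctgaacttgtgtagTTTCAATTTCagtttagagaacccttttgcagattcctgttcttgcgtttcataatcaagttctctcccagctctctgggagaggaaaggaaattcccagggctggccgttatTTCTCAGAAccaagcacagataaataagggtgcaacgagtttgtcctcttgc
Igtp (chr11:58199306-58199555, plus strand): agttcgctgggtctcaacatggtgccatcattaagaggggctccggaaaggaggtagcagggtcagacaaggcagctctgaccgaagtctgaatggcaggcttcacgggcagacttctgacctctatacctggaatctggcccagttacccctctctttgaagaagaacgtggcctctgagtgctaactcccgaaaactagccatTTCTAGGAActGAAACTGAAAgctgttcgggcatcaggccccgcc
Ifit3 and Ifit3b carried the same pair of ISRE cores, read here as TTTCACTTTC and TTTCAGTTTC because the cores lie on the opposite strand. They began 156 and 122 bases before the RefSeq start used for Ifit3, and 188 and 154 bases before that used for Ifit3b. The annotated spans of these genes begin at 34583119 (Ifit3) and 34607530 (Ifit3b). Both windows therefore lie inside the spans, and the starts used lie downstream of where the spans begin. In Isg15 a run of 3 overlapping ISRE cores began 78, 72 and 66 bases before the start. In Gbp5 an ISRE core (165 bases before the start) stood between 2 GAS cores (245 and 52 bases before it). In Igtp a GAS core began 45 and an ISRE core 34 bases before the start.

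The 14 libraries held 13924770 to 33807887 counts, and no member had fewer than 20 counts in any of them. A further weight loss library held 230 counts, none on a member, and was left out. Levels are CPM, counts brought to a common library total with TMM factors, and per-library values are listed in order of replicate number. The adipocyte markers summed to 18610 to 25380 CPM, so the defining markers of fat were present. Transcripts of the epididymis, which adjoins this depot in males, summed to 1.58 to 3376 CPM in lean, 9.85 to 8345 CPM in obese and 0.790 to 63.1 CPM in weight loss libraries. The sum over 11 macrophage markers was 440.5 to 966 CPM in lean, 974 to 1479 CPM in obese and 576 to 1317 CPM in weight loss libraries.

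Compared per kilobase of exon, the members spanned a wide range of levels. Ifi27, which encodes a small membrane protein, stood highest at 289 CPM per kb averaged over the 14 libraries. Bst2, which encodes the virion-trapping protein tetherin, followed at 150.5 CPM per kb. Ifi35 (33.3 CPM per kb), the guanylate-binding protein gene Gbp2 (28.1 CPM per kb) and the immunoproteasome gene Psmb8 (26.1 CPM per kb) came next. At the low end stood Herc6, Oas3, Mx2, Ifi44 and Mx1, the last at 0.551 CPM per kb. Together the members held 0.18% of the counts.

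Obese against lean fat gave 2 called members. Oas2 and Ifit3, both antiviral effectors, rose in obese fat, and no member fell. These 2 of 48 are 4.17% of the members, while 9.71% of all tested genes were called in this comparison (5.86% higher and 3.85% lower), so the members were called no more often than genes at large. Calls rest on edgeR's quasi-likelihood test with Benjamini-Hochberg adjustment over all genes, at a threshold of 0.05. At an unadjusted p under 0.05 stood 11 members, 10 higher and 1 lower in obese fat, against 24.8% of all genes (13.2% higher and 11.5% lower). The members' log2 fold changes ran from -0.33 to 1.06 with a median of 0.20, while the median over all genes was -0.02. They were above 0 for 36 of 48 members, compared with 47.8% of all genes. In 3 members, Oas2, Ifit3 and Irf8, every obese library lay above every lean one, which held for 6.04% of all genes, and in none did every obese library lie below (4.31% of all genes). The p-values measure the spread between these samples. The series text calls them independent samples, but the labels do not say that each came from a separate mouse.

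**Figure D1:**
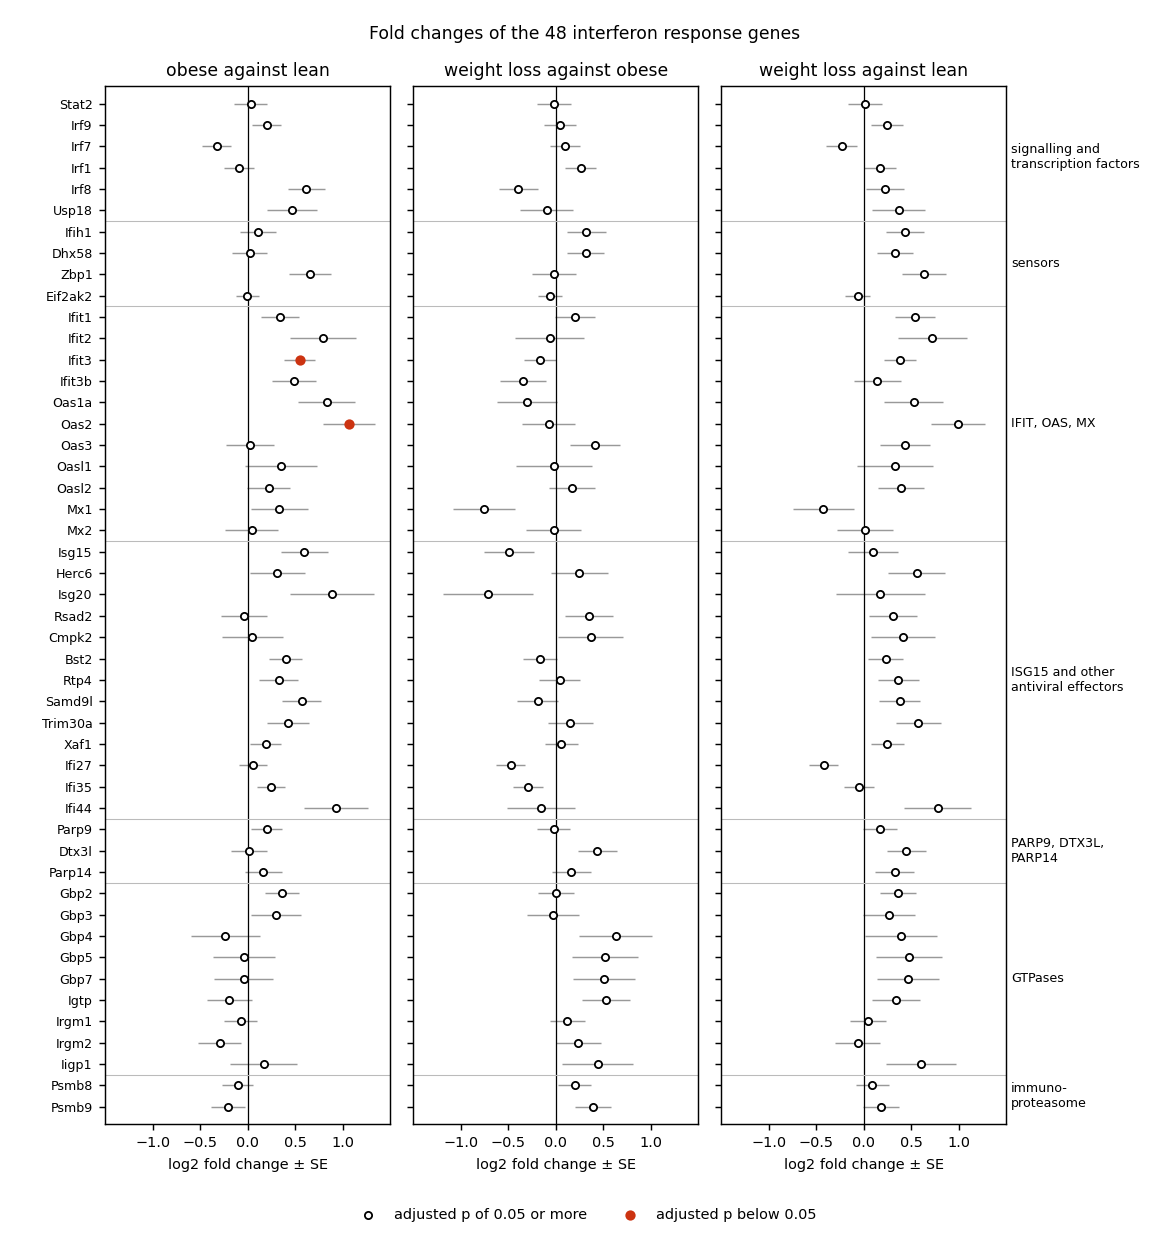
Log2 fold change ± standard error (x axis) of each of the 48 members (y axis, ordered by role) in each of the 3 comparisons, with filled points for an adjusted p below 0.05. Only Oas2 and Ifit3, in obese against lean fat, are filled, and most points of the panel of weight loss against lean lie right of 0 with an adjusted p of 0.05 or more.

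IFIT proteins bind viral RNA, the OAS family is known for the 2′-5′ oligoadenylates that switch on RNase L, and MX proteins block viral particles. Mx1 and Mx2 are annotated as transcribed pseudogenes in RefSeq, and C57BL/6 mice are known to carry defective copies of both. In obese against lean fat 2 of the 11 were called, while 9.71% of all genes were. All 11 had a log2 fold change above 0 (47.8% of all genes), and their median was 0.35. The roles were set with earlier results of these data known. Oas2 (Entrez ID 246728, chromosome 5, 120730333 to 120749886 on mm10) stood at 11.0, 13.5, 15.1, 9.85 and 14.8 CPM in the lean libraries. The obese libraries gave 35.7, 20.5, 30.8, 24.4 and 23.1 CPM and the weight loss libraries 41.5, 11.3, 24.4 and 24.9 CPM. Each obese library lay above the highest lean one, while weight loss replicate 2 lay within the lean range. Oas2 rose 2.09-fold in obese fat, a log2 change of 1.06 ± 0.27 (adjusted p = 0.0242). Its call was lost without lean replicate 4, obese replicate 1 or obese replicate 3 (adjusted p up to 0.0638). When the 4 libraries with the highest summed CPM of epididymal markers were left out, which left 2 obese libraries, the log2 change of Oas2 was 1.32 and its adjusted p 0.14. Ifit3 (Entrez ID 15959, chromosome 19, 34583119 to 34588982) stood at 19.4, 21.1, 19.9, 25.5 and 13.5 CPM in lean, 30.5, 26.6, 30.3, 31.8 and 26.2 CPM in obese and 28.5, 19.4, 30.5 and 25.2 CPM in weight loss libraries. The lowest obese library lay just above the highest lean library. Ifit3 rose 1.46-fold, a log2 change of 0.55 ± 0.16 (adjusted p = 0.0457). The call held in 3 of 14 fits that left out 1 library, and the adjusted p then ran from 0.0346 to 0.102. In the fit without those 4 epididymis-rich libraries its log2 change was 0.60 with an adjusted p of 0.322. That fit called no member, and of all genes it called 93 higher and 32 lower, against 891 and 586 with every library.

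Reads of Ifit3 can be confused with those of Ifit3b, its neighbour: 51.2% of the 50-base words of Ifit3 also occur in Ifit3b, and how the authors shared reads between genes is not given in the sources used here. Ifit3b stood at 4.08 ± 1.12 CPM in lean, 5.72 ± 0.815 CPM in obese and 4.5 ± 1.08 CPM in weight loss fat (mean ± SD, n = 5, 5 and 4), and its log2 difference between obese and lean fat of 0.49 ± 0.23 did not pass (adjusted p = 0.209). With the counts of both genes added up, a choice made after the data were seen, the log2 fold change was 0.54 with an adjusted p of 0.0435. Ifit1, on the same stretch of chromosome 19, stood at 12.9, 12.3, 15.7, 15.8 and 18.9 CPM in lean, 20.3, 20.8, 20.6, 20.2 and 14.1 CPM in obese and 27.2, 16.5, 29.3 and 15.1 CPM in weight loss libraries. Obese replicates 1 to 4 lay close together above all lean libraries and obese replicate 5 lay among the lean ones. Its log2 difference between obese and lean fat was 0.34 ± 0.20 (adjusted p = 0.32). Oas1a, Ifit2 and Mx1 differed by log2 values of 0.83 ± 0.30, 0.79 ± 0.35 and 0.33 ± 0.30, with adjusted p-values of 0.0946, 0.172 and 0.557. Oas1a shares 57.6% of its 50-base words with other genes, most of them with Oas1g. Oas3, Oasl1, Oasl2 and Mx2 had log2 differences of 0.02 to 0.35, all with an adjusted p of 0.622 or more.

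Some markers of several cell types differed between obese and lean fat. Of 11 macrophage markers 7 rose in obese fat and none fell, every obese library had a higher sum of them than any lean library, and C1qa, the most abundant, averaged 132 ± 38.5 CPM over lean and 291 ± 48.1 CPM over obese libraries (SD, n = 5). Of 6 markers of adipocyte progenitors 3 rose, as did 1 of 5 mesothelial and 1 of 11 epididymal markers. Of 8 adipocyte markers 1 fell and none rose (median log2 -0.28). No marker of conventional dendritic cells (median log2 0.54), T and NK cells, B cells or endothelial cells was called. Of all genes 5.86% were called higher and 3.85% lower. Of 4 tested neutrophil markers 2 rose, S100a8 (from a mean of 0.433 to 4.39 CPM) and S100a9 (from 0.0452 to 0.872 CPM). Retnlg (log2 3.05 ± 1.01, adjusted p = 0.0711) and Cxcr2 (log2 -0.38 ± 0.165, adjusted p = 0.166) were not called. Cxcr2, the most abundant of them, thus lay below 0. The summed neutrophil markers gave 19.9 to 24.1 CPM in obese libraries, within the lean range of 17.4 to 27.7 CPM. The defining neutrophil marker Ly6g was at 0 in all 14 libraries. None of 5 tested markers of plasmacytoid dendritic cells, which make type I interferon, passed, and their median log2 difference was -0.13 with 2 of 5 above 0. Their summed level of 37.4 to 53.9 CPM in lean, 50 to 72.8 CPM in obese and 40.2 to 85.3 CPM in weight loss libraries was mostly Il3ra (a mean of 49.7 CPM over all libraries, against 2.9 CPM for Siglech). The part of these cell types in the differences of Oas2 and Ifit3 was not tested. In bulk tissue, fewer cells of a type and less RNA per cell cannot be told apart.

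The 13 genes of the ISG15 pathway and other antiviral effectors included none that was called in obese against lean fat. Their median log2 fold change was 0.32, and 12 of 13 were above 0 (47.8% of all genes). Samd9l, which restricts viral protein synthesis, stood at 18.6, 16.7, 17.0, 18.6 and 9.5 CPM in lean, 30.1, 26.4, 18.5, 25.8 and 18.3 CPM in obese and 24.7, 20.6, 22.7 and 15.6 CPM in weight loss libraries. The ranges of lean and obese libraries met at about the same level (lean replicates 1 and 4 against obese replicates 3 and 5), and the log2 difference of 0.57 ± 0.20 did not pass (adjusted p = 0.0911). Ifi44 stood at 3.52, 2.34, 3.52, 4.56 and 4.68 CPM in lean, 9.55, 5.89, 7.65, 8.43 and 4.06 CPM in obese and 9.88, 3.05, 8.45 and 4.17 CPM in weight loss libraries. Obese replicate 5 and weight loss replicates 2 and 4 lay within the lean range. The log2 difference of Ifi44 between obese and lean fat was 0.93 ± 0.34 (adjusted p = 0.0973). Isg15, the ubiquitin-like protein that is attached to other proteins after interferon, stood at 6.64, 8.80, 8.41, 5.29 and 9.65 CPM in lean, 14.3, 11.6, 12.5, 8.32 and 11.8 CPM in obese and 13.3, 6.05, 8.23 and 5.77 CPM in weight loss libraries. Obese replicate 4 was the single obese library within the lean range, and the log2 difference was 0.59 ± 0.25 (adjusted p = 0.152). Trim30a stood at 11.7, 10.5, 20.9, 12.3 and 12.9 CPM in lean, 20.1, 18.8, 14.9, 20.5 and 17.4 CPM in obese and 23.3, 15.0, 29.1 and 14.2 CPM in weight loss libraries. Lean replicate 3 lay slightly above the highest obese library (log2 0.42 ± 0.22, adjusted p = 0.268). Isg20, an exonuclease for RNA, had a log2 difference of 0.89 ± 0.45 that rested on obese replicate 4. That library gave 73.8 CPM where the other obese libraries gave 11.0 to 15.3 CPM, and without it the log2 difference was -0.04. Bst2, Herc6, Rtp4, Xaf1, Ifi35, Cmpk2, Rsad2 and Ifi27 had log2 differences of -0.04 to 0.40, with adjusted p-values of 0.168 or more.

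**Figure D2:**
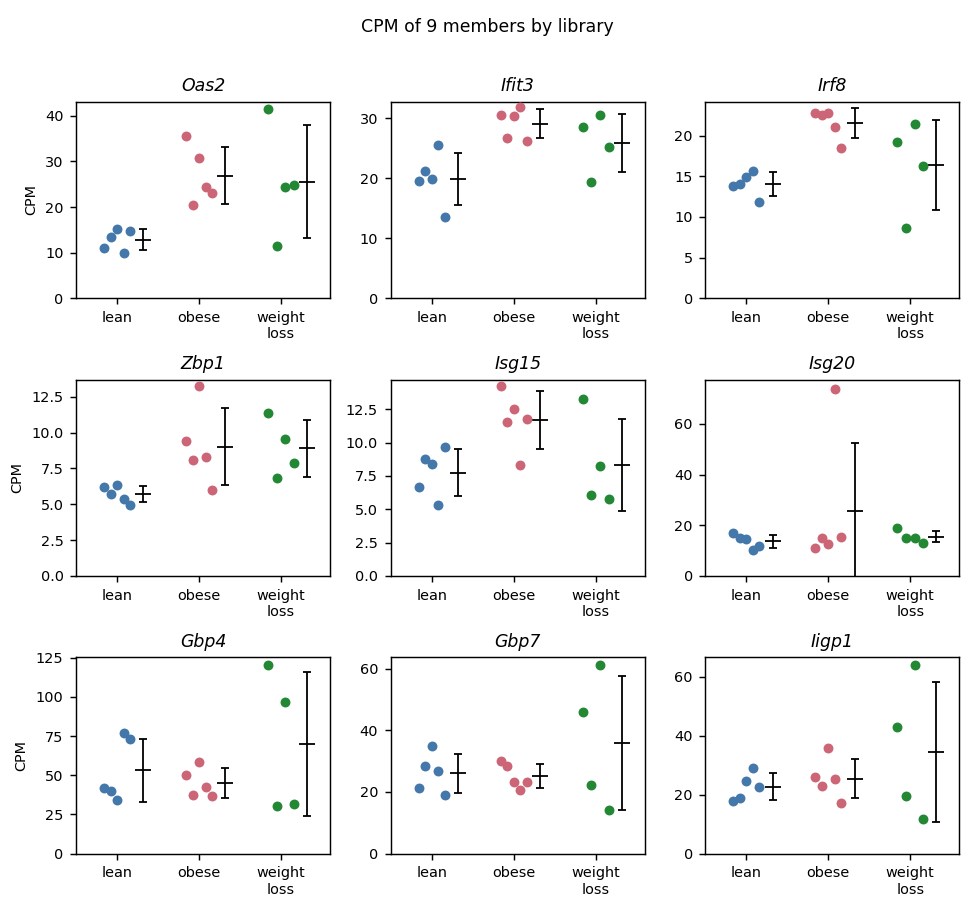
CPM of 9 members (y axis, linear from 0) in each of the 14 libraries by group (x axis), with the mean and a bar of ± 1 SD beside the points. Oas2, Ifit3 and Irf8 show obese libraries above all lean ones, Isg20 shows 1 obese library at 73.8 CPM, and the lower row shows weight loss libraries of Gbp4, Gbp7 and Iigp1 split into 2 high and 2 low.

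Among the 6 genes of receptor-proximal signalling and transcription none was called in obese against lean fat, with a median log2 fold change of 0.12. Irf8, a transcription factor of macrophages and dendritic cells, stood at 13.9, 14.1, 14.9, 15.6 and 11.8 CPM in lean, 22.8, 22.6, 22.8, 21.1 and 18.5 CPM in obese and 19.2, 8.69, 21.4 and 16.3 CPM in weight loss libraries. All obese libraries lay above all lean ones, and the log2 difference of 0.62 ± 0.19 missed the threshold (adjusted p = 0.0565). Irf8 did pass with DESeq2 (adjusted p = 0.0249), which called more genes in all (1250 higher and 1010 lower). It also passed with only the 2 groups compared in the fit (adjusted p = 0.00933). Leaving out weight loss replicate 2 or 3 gave a call of Irf8 as well. Irf7, which amplifies type I interferon production, stood at 36.4, 54.6, 39.0, 40.1 and 49.1 CPM in lean, 32.7, 25.4, 43.3, 33.2 and 40.0 CPM in obese and 40.0, 35.3, 34.6 and 39.5 CPM in weight loss libraries. It was the single member lower in obese fat at an unadjusted p under 0.05, with overlapping groups (log2 -0.33 ± 0.15, adjusted p = 0.192). Irf8 and Irf7 thus lay on opposite sides of 0. Irf9, the DNA-binding partner of STAT2, stood at 34.5, 31.0, 37.8, 35.5 and 38.9 CPM in lean, 42.9, 38.9, 37.4, 54.0 and 30.9 CPM in obese and 50.1, 32.1, 48.8 and 37.4 CPM in weight loss libraries. Irf1, an early target of interferon gamma, stood at 66.6, 69.5, 60.0, 81.4 and 87.2 CPM in lean, 72.9, 67.2, 73.1, 63.8 and 64.7 CPM in obese and 111, 65.4, 91.2 and 60.4 CPM in weight loss libraries. The groups overlapped for both, with log2 differences of 0.20 ± 0.16 and -0.09 ± 0.16 between obese and lean fat. Stat2 (0.03 ± 0.17) and Usp18 (0.46 ± 0.27), which removes ISG15 and dampens the type I receptor, had adjusted p-values of 0.936 and 0.309.

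The 4 sensors of foreign nucleic acid also gave no call. Zbp1, a sensor of Z-form nucleic acid that can trigger cell death, stood at 6.20, 5.75, 6.37, 5.36 and 4.96 CPM in lean, 9.41, 8.10, 13.3, 8.32 and 6.03 CPM in obese and 11.4, 6.81, 9.54 and 7.91 CPM in weight loss libraries. Obese replicate 5 lay within the lean range while every weight loss library lay above it. The log2 difference between obese and lean fat was 0.65 ± 0.22 (adjusted p = 0.0707), and DESeq2 gave an adjusted p of 0.0381. Zbp1 also passed in the fit without obese replicate 5. Ifih1, the double-stranded RNA sensor MDA5, stood at 23.6, 29.6, 31.9, 21.4 and 17.4 CPM in lean, 33.2, 27.2, 26.9, 25.3 and 21.2 CPM in obese and 36.9, 26.7, 44.0 and 26.2 CPM in weight loss libraries. Dhx58, its regulator LGP2, stood at 7.63, 11.3, 11.2, 8.98 and 9.93 CPM in lean, 11.9, 9.98, 8.68, 9.63 and 9.49 CPM in obese and 16.3, 9.35, 10.3 and 13.6 CPM in weight loss libraries. Obese and lean libraries overlapped for both, with log2 differences of 0.11 ± 0.19 and 0.02 ± 0.18. Eif2ak2, the kinase PKR, was at 39.8 ± 4.97, 39.6 ± 5.68 and 38.0 ± 2.19 CPM in lean, obese and weight loss fat (mean ± SD, n = 5, 5 and 4). Its log2 difference of -0.01 ± 0.12 between obese and lean fat had an adjusted p of 0.983.

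Parp9, Dtx3l and Parp14 encode ADP-ribosyltransferases and a ubiquitin ligase partner that act in interferon signalling, and the 3 genes lie near each other on chromosome 16, between 35831892 and 35972621. None was called in obese against lean fat (median log2 0.16). Parp9 stood at 40.1, 44.3, 58.0, 48.3 and 27.6 CPM in lean, 48.5, 54.9, 48.5, 50.3 and 48.1 CPM in obese and 47.1, 50.8, 60.7 and 38.5 CPM in weight loss libraries. Parp14 stood at 60.1, 75.7, 53.1, 76.1 and 71.6 CPM in lean, 89.7, 77.3, 76.1, 66.3 and 67.3 CPM in obese and 133, 61.4, 79.8 and 63.2 CPM in weight loss libraries. The groups overlapped for both, and weight loss replicate 1 had the highest Parp14 level of all 14 libraries.

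The 9 interferon-inducible GTPases are guanylate-binding proteins and immunity-related GTPases, families with members that coat and break the vacuoles in which microbes hide. The log2 fold changes of the 9 in obese against lean fat were centred near 0 (median -0.05, 3 of 9 above 0), and none was called. Gbp2 stood at 53.8, 63.9, 68.3, 57.6 and 55.2 CPM in lean, 79.0, 80.4, 91.4, 76.9 and 55.7 CPM in obese and 85.5, 66.8, 107 and 48.8 CPM in weight loss libraries. Obese replicate 5 lay within the lean range, and the log2 difference of Gbp2 was 0.36 ± 0.18 (adjusted p = 0.24). Irgm2 stood at 21.1, 23.4, 29.2, 21.9 and 18.9 CPM in lean, 20.2, 18.0, 19.0, 19.8 and 16.2 CPM in obese and 31.8, 13.3, 28.7 and 13.9 CPM in weight loss libraries (log2 -0.30 ± 0.22, adjusted p = 0.459). Its weight loss replicates 1 and 3 were above, and replicates 2 and 4 below, every obese library. The immunoproteasome subunits, which trim peptides for MHC class I, were both below 0. Psmb8 stood at 72.2, 86.6, 105, 81.5 and 98.6 CPM in lean, 74.4, 69.9, 113, 71.3 and 82.4 CPM in obese and 112, 67.2, 104 and 95.0 CPM in weight loss libraries. Psmb9 stood at 25.2, 30.4, 35.1, 24.9 and 36.7 CPM in lean, 21.1, 22.6, 33.4, 25.9 and 29.1 CPM in obese and 36.6, 23.3, 42.4 and 36.3 CPM in weight loss libraries. Their log2 differences of -0.11 ± 0.17 and -0.21 ± 0.18 had adjusted p-values of 0.743 and 0.533.

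Weight loss against obese fat gave no called member of 48, while 1.62% of all genes were called (0.736% higher and 0.881% lower). At an unadjusted p under 0.05 stood 3 members, 1 higher and 2 lower, against 14.3% of all genes (7.16% higher and 7.13% lower), and DESeq2 (47 members given an adjusted p) and limma-voom called none either. The members' log2 fold changes ran from -0.75 to 0.63 with a median of 0.04 (0.02 over all genes), and 26 of 48 were above 0 (52.9% of all genes). Without weight loss replicate 1 or 3 that median was -0.05 or -0.04, without replicate 2 or 4 it was 0.15 or 0.14, and with the epididymal level as a covariate -0.14. Members at an unadjusted p under 0.05 numbered 8 without replicate 4 and 5 without replicate 2. In no member did the groups separate, which happened in 3.37% of all genes upward and 3.27% downward. Dtx3l was the single member higher at that level. It stood at 36, 38.0, 59.5, 47.9 and 38.4 CPM in lean, 54.4, 51.3, 43.4, 39.9 and 32.7 CPM in obese and 74.8, 58.1, 67.5 and 39.9 CPM in weight loss libraries, and weight loss replicate 4 lay within the obese range. Its log2 difference from obese fat was 0.44 ± 0.20 (adjusted p = 0.343). Ifi27 and Mx1 were the members lower at that level. Ifi27 stood at 383, 455, 467, 502 and 446 CPM in lean, 436, 387, 548, 416 and 551 CPM in obese and 287, 415, 268 and 378 CPM in weight loss libraries. Weight loss replicates 1 and 3, high for most members, were the lowest of all 14 libraries for Ifi27 (log2 against obese -0.47 ± 0.15, adjusted p = 0.154). Mx1 stood at 1.83, 1.56, 3.03, 2.08 and 1.70 CPM in lean, 3.38, 1.86, 3.20, 2.62 and 1.83 CPM in obese and 2.20, 1.22, 1.45 and 1.23 CPM in weight loss libraries (log2 against obese -0.75 ± 0.32, adjusted p = 0.301).

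By role, the GTPases had the highest median log2 fold change of weight loss against obese fat, 0.44. Of these 9 genes, 8 were above 0 (52.9% of all genes). The ISG15 pathway and other effectors had the lowest median, -0.15. Gbp4 stood at 41.9, 39.8, 34.5, 76.8 and 73.0 CPM in lean, 50.3, 37.3, 58.6, 42.7 and 36.6 CPM in obese and 120.4, 30.2, 96.9 and 31.5 CPM in weight loss libraries. Igtp stood at 17.6, 20.4, 22.9, 25.8 and 22.6 CPM in lean, 18.5, 15.6, 27.8, 16.8 and 16.8 CPM in obese and 35.7, 15.9, 39.2 and 19.4 CPM in weight loss libraries. For both genes weight loss replicates 1 and 3 exceeded every other library, while replicates 2 and 4 did not exceed the obese range. The log2 differences from obese fat, 0.63 ± 0.38 for Gbp4 and 0.53 ± 0.25 for Igtp, did not pass (adjusted p = 0.505 and 0.357). The other 7 GTPases had log2 differences of -0.03 (Gbp3) to 0.52 (Gbp5) with adjusted p-values of 0.537 or more, and Psmb8 and Psmb9 of 0.20 ± 0.17 and 0.39 ± 0.19. Oas2 and Ifit3 differed from obese fat by -0.07 ± 0.28 and -0.17 ± 0.17 (adjusted p = 0.947 and 0.739), so no difference from obese fat was detectable at this spread.

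Weight loss against lean fat also gave no called member by edgeR's quasi-likelihood test, where 0.0329% of all genes were called. DESeq2 called 1 member, Oas2 (adjusted p = 0.0493), among 203 higher and 58 lower genes in all, and limma-voom called no member and 1 gene in all. At an unadjusted p under 0.05 stood 9 members, 8 higher and 1 lower, against 11.4% of all genes (7.55% higher and 3.89% lower). The log2 fold change was above 0 for 42 of 48 members (50.5% of all genes), and the median was 0.33 (0.00 over all genes), with a range from -0.42 to 0.99. That median moved with single libraries, to 0.17 without weight loss replicate 1 or without replicate 3, and to 0.44 without replicate 2. Members at an unadjusted p under 0.05 numbered 1 and 2 without replicates 1 and 3, and 15 and 13 without replicates 2 and 4. Oas2 differed from lean fat by a log2 value of 0.99 ± 0.28 (adjusted p = 0.201), beside 1.06 ± 0.27 for obese against the same lean libraries. Zbp1 was the single member in which every weight loss library lay above every lean library, a pattern found in 1.58% of all genes, while none lay wholly below (0.704% of all genes). The log2 difference of Zbp1 was 0.64 ± 0.23 (adjusted p = 0.31). Ifit1, Trim30a, Ifi44, Dtx3l, Ifih1 and Ifit3 were the other higher members, with log2 differences of 0.38 to 0.78 and adjusted p-values of 0.354 to 0.436. Ifi27 was the lower one (log2 -0.42 ± 0.15, adjusted p = 0.315). Oas3 stood at 5.84, 4.04, 6.73, 5.09 and 11.1 CPM in lean, 7.94, 6.70, 7.65, 6.28 and 4.80 CPM in obese and 9.77, 8.29, 7.55 and 9.88 CPM in weight loss libraries, and lean replicate 5 exceeded all of them (log2 against lean 0.43 ± 0.27). Iigp1, an immunity-related GTPase, stood at 18.0, 19.0, 24.7, 29.2 and 22.7 CPM in lean, 26.1, 23.1, 35.8, 25.3 and 17.2 CPM in obese and 42.9, 19.5, 64.0 and 11.8 CPM in weight loss libraries. Its weight loss libraries held both the highest and the lowest value of all 14 (log2 against lean 0.61 ± 0.37, adjusted p = 0.556).

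Most members shared a split among the weight loss libraries that no group label describes. Others did not, among them Oas2 (24.45 CPM in replicate 3 and 24.89 CPM in replicate 4) and Ifi27, which was lowest in replicates 1 and 3. Weight loss replicate 1 was the highest of its group in 26 of 48 members (29.0% of all genes) and replicate 3 in 19 (24.5% of all genes). Replicate 2 was the lowest in 23 members (18.8% of all genes) and replicate 4 in 20 (29.7% of all genes). Averaged over the 48 members, each taken as log2 CPM minus the gene's mean over 14 libraries, replicates 1 to 4 stood at 0.46, -0.28, 0.41 and -0.24. Lean libraries on the same scale ran from -0.32 to -0.002 and obese libraries from -0.12 to 0.25, so replicates 1 and 3 lay above every obese library and replicates 2 and 4 among the lean ones. The GTPases split furthest, at 0.61, -0.35, 0.91 and -0.65 for replicates 1 to 4. Gbp7 shows this gene by gene, with 46.0, 22.4, 61.3 and 14.1 CPM in weight loss libraries against 30.2, 28.4, 23.3, 20.7 and 23.4 CPM in obese and 21.3, 28.3, 34.9, 26.7 and 18.9 CPM in lean libraries. Single libraries stood out in the other groups too. Obese replicate 1 was the highest of its group in 25 of 48 members (24.3% of all genes). Obese replicate 5 was the lowest in 26 (27.5% of all genes), and lean replicate 3 the highest in 19 (23.6% of all genes).

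**Figure D3:**
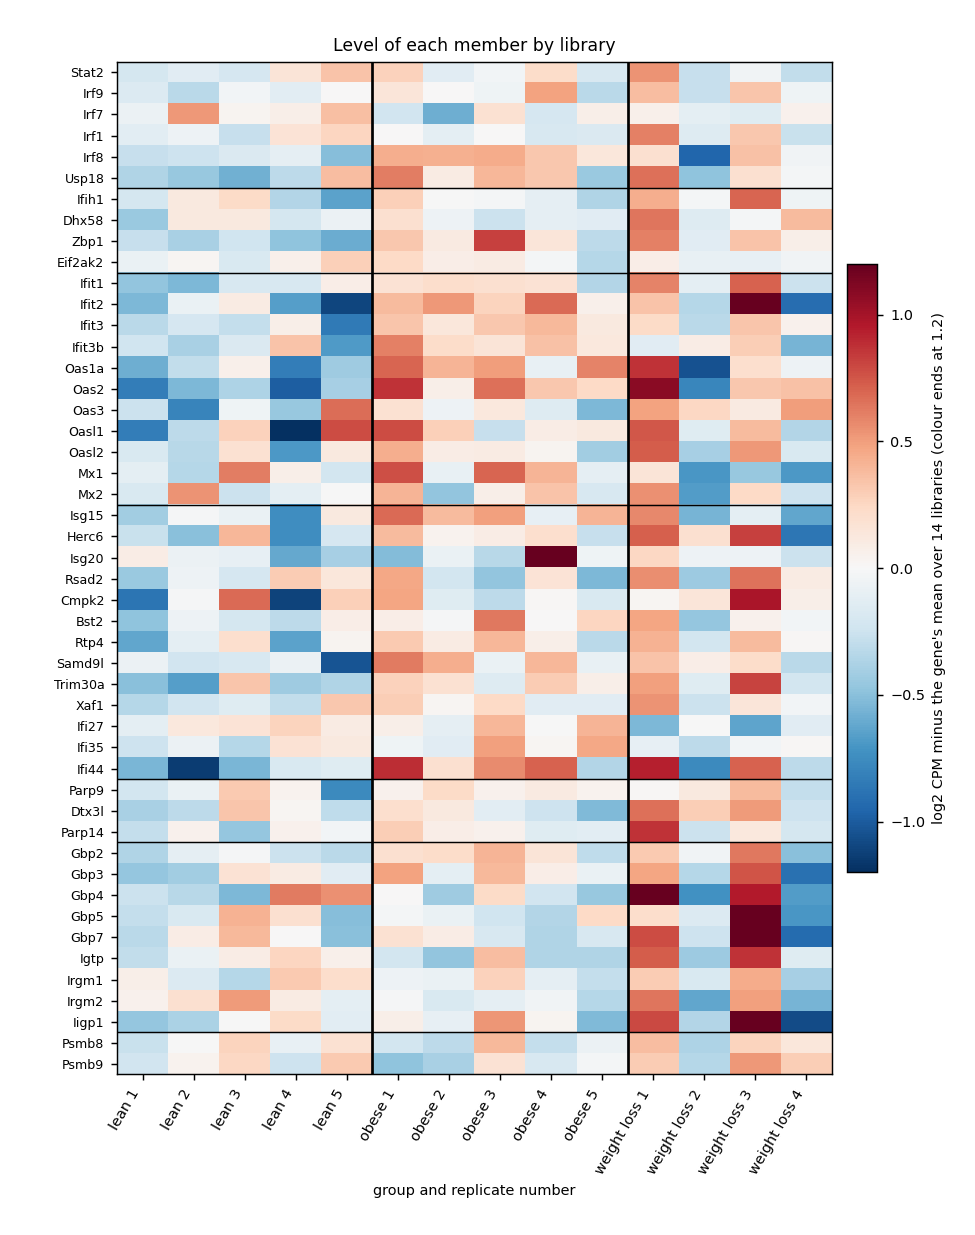
Log2 CPM of each of the 48 members (rows, ordered by role) minus that gene's mean over the 14 libraries, in each library (columns, by group), with red above and blue below the mean and the colour scale ending at 1.2 either way. Weight loss replicates 1 and 3 are mostly red and replicates 2 and 4 mostly blue, and the lean columns are mostly blue in the IFIT, OAS and MX rows.

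The within-group spread was larger after weight loss for most members. The largest of the 3 groups' SDs of log2 CPM belonged to weight loss in 34 of 48 members (70.8%), compared with 39.6% of all genes. The median SD over members was 0.29 in lean, 0.28 in obese and 0.43 in weight loss fat, where all genes had 0.33, 0.26 and 0.33. For the GTPases it was 0.28 in lean and 0.27 in obese fat, and 0.75 after weight loss. In weight loss replicates 1 to 4 the macrophage marker sum was 1317, 576, 1258 and 1009 CPM and the endothelial marker sum 1195, 779, 970 and 633 CPM. Both were highest in replicates 1 and 3. So were the sums for plasmacytoid and conventional dendritic cells, T and NK cells, adipocyte progenitors and mesothelial cells. The sums for adipocytes, B cells, neutrophils and the epididymis did not follow that order. The part of these cell types in the split was not tested. Neither the labels nor the files give a batch, so values within a batch could not be formed.

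**Figure D4:**
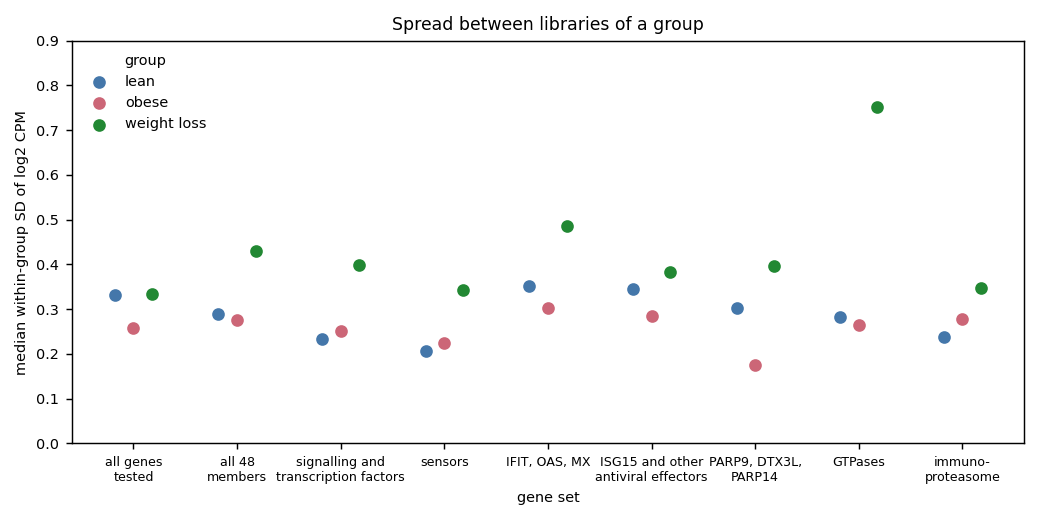
Median over genes of the SD of log2 CPM between libraries of 1 group (y axis), for all genes tested, all 48 members and each role (x axis), in lean, obese and weight loss fat. Weight loss is the highest of the 3 for every role, at 0.75 for the GTPases, while for all genes it equals lean at 0.33.

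Members varied together after group means were removed. The libraries used include the weight loss libraries split above, so this is not separate from that split. Over the 14 libraries the median correlation between pairs of members was 0.40 (Pearson) and 0.41 (Spearman), and between pairs among all genes -0.00 by both. It was 0.77 and 0.71 among the GTPases, and 0.89 and 0.87 for the pair Psmb8 and Psmb9. Among the IFIT, OAS and MX genes it was 0.43 and 0.41, and among the ISG15 pathway and other effectors 0.20 and 0.21. These values describe the same 14 libraries for every pair, with their shared scaling, and carry no test.

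The 10 interferon ligand genes that were listed stood at or near the limit of detection. Ifnb1, Ifna1, Ifna2, Ifna4, Ifna5, Ifnl2 and Ifnl3 had 0 reads in all 14 libraries, which allows a level of up to 0.0105 CPM for each over the pooled libraries, counting error only. Ifnk had 19 reads in 8 libraries, Ifne 6 in 1 library, and Ifng, interferon gamma, 42 reads in 11 libraries with at most 8 in any. None of the 10 ligands listed passed the filter. The receptor gene for interferon lambda, Ifnlr1, also had 0 reads.

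The receptors for the other interferons were present at moderate levels. In obese against lean fat 5 of 58 tested genes of the wider pathway rose and none fell (8.62%, near the background of all genes), and none was called in the other comparisons. Ifngr2, the signalling chain of the interferon gamma receptor, stood at 29.2, 25.3, 25.1, 22.9 and 26.2 CPM in lean, 40.5, 50.1, 44.2, 39.0 and 38.7 CPM in obese and 35.7, 28.7, 31.3 and 27.1 CPM in weight loss libraries. Obese libraries lay above all others, and Ifngr2 rose by a log2 value of 0.72 ± 0.11 (adjusted p = 0.00153). After weight loss its log2 difference from obese fat was -0.47 ± 0.12, with separate groups but an adjusted p of 0.069. Ifnar2, of the type I receptor, stood at 112, 120.5, 145, 149 and 108 CPM in lean, 197, 184, 182, 188 and 139 CPM in obese and 134, 143, 142 and 130.5 CPM in weight loss libraries. It rose in obese fat by 0.49 ± 0.12 (adjusted p = 0.0198), with obese replicate 5 within the lean range. The partner chains Ifnar1 (-0.08 ± 0.13) and Ifngr1 (-0.04 ± 0.17) had log2 differences within their standard errors between obese and lean fat. The 3 other called genes were Ptpn6, a phosphatase that dampens JAK-STAT signals (0.73 ± 0.21), Slfn2 (0.68 ± 0.16) and Tdrd7 (0.48 ± 0.14), with adjusted p-values of 0.0406, 0.0156 and 0.0381. Of 14 upstream sensors and adaptors none was called, and 4 stood at an unadjusted p under 0.05. The part of macrophages and other cell types in these rises was not tested either.

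**Figure D5:**
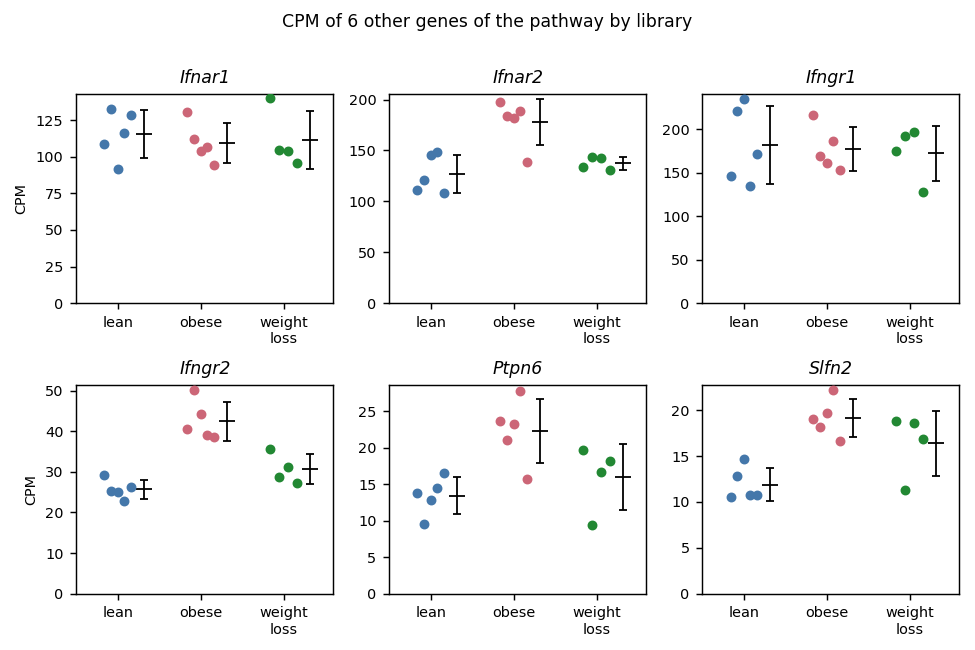
CPM (y axis, linear from 0) of 4 interferon receptor chains, Ptpn6 and Slfn2 in each of the 14 libraries by group (x axis), with the mean and a bar of ± 1 SD beside the points. The obese libraries of Ifngr2 lie above all others, those of Ifnar2 above lean except replicate 5, and Ifnar1 and Ifngr1 overlap between all 3 groups.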

How the data were processed

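The authors deposited expected counts per Entrez ID, with 34.8% of values not whole. The submitters' processing notes name mm10, but which aligner, counting tool and annotation were used is not given in the sources used here. Counts were rounded, and library totals under 1000000 left out. Symbols came from RefSeq (32919 of 35794 IDs) and GENCODE M21 (24), and 2851 had none.

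Genes were kept by edgeR's filterByExpr, scaled by TMM and tested in 1 model of 3 groups with edgeR 4.0.16 (glmQLFit, glmQLFTest) in R 4.3.3, in two-sided tests, and p was adjusted by Benjamini-Hochberg across 15208 genes. A standard error is the size of the log2 fold change divided by the square root of the F statistic. CPM used TMM-scaled totals, and levels per kb GENCODE M21 exon lengths. The members, their roles and the other lists were chosen with earlier results of these data known. Given in full were called members and the 2 members of each role with the smallest p in each comparison, besides Isg20 and Gbp7, added after their values were seen. A gene of the wider pathway list is not reported here.

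The test was checked on simulated data. Alternatives were other scalings and filters, DESeq2 1.42.0, limma-voom 3.58.1, only the groups compared, a replicate block, epididymal covariates and left-out libraries. Motifs and shared words were counted with Python 3.11.15, and figures drawn with matplotlib 3.10.9.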

Additional observations from a re-analysis of the deposited data

Results flagged for a closer look

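In 10 of 144 pairs of member and group (6.94%), 1 library stood apart from the rest of its group by Dixon's criterion, which chance alone meets in about 1 of 20. In lean fat, Usp18 was 8.30 CPM in replicate 5 (others 4.29 to 5.16), Mx2 was 5.18 CPM in replicate 2 (others 2.98 to 3.55), and Trim30a was 20.9 CPM in replicate 3 (others 10.5 to 12.9). Lean replicate 5 also stood apart for Xaf1, at 56.9 CPM (others 35.9 to 41.3), and for Samd9l, at 9.5 CPM (others 16.7 to 18.6). In obese fat, Isg20 was 73.8 CPM in replicate 4 (others 11.0 to 15.3), and Ifit1 was 14.1 CPM in replicate 5 (others 20.2 to 20.8). Obese replicate 3 was the highest for Igtp, at 27.8 CPM (others 15.6 to 18.5), and for Psmb8, at 113 CPM (others 69.9 to 82.4). In weight loss fat, Cmpk2, a mitochondrial nucleotide kinase, was 16.0 CPM in replicate 3 (others 8.24 to 8.95).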

How the results depend on the processing

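The count of 2 members called in obese against lean fat (of all genes 891 higher and 586 lower) was 4 with DESeq2 (Ifit3, Irf8, Oas2 and Zbp1; all genes 1250 and 1010) and with only the 2 groups compared (Ifit3, Irf8, Oas1a and Oas2; all genes 959 and 613). It was 1 (Oas2) without a filter on low counts (all genes 693 and 499) and with epididymal RNA as a covariate (458 and 194). It was 0 when the 4 libraries with the highest summed CPM of epididymal markers were left out (obese replicates 2, 4 and 5 and lean replicate 1), which left 2 obese libraries and called 93 and 32 of all genes. By the mean log2 CPM of those markers obese replicate 3 (4.38) stood above obese replicate 4 (2.16), and it was kept. Leaving out 1 library gave 0 to 4, with 0 without obese replicate 1 or 3 and 4 without weight loss replicate 2. The log2 fold change of Oas2 ran from 0.94 to 1.32 and that of Ifit3 from 0.44 to 0.62 over all 25 alternatives. Without a filter Ifit3 had an adjusted p of 0.0676, and with the covariate 0.0867. Weight loss against obese fat gave 0 members under all 25 alternatives, and weight loss against lean fat 0 under all but DESeq2, which gave 1 (Oas2; all genes 203 and 58). No fold change of Oas2 or Ifit3 changed sign.

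A check for pairing of the samples by replicate number showed none, though with so few pairs it cannot exclude one. Over 13 same-numbered pairs the correlation of deviations ran from -0.553 to 0.399, and 3 of 14 libraries correlated best with their own number. With the replicate number as a block, 3 members were called in obese against lean fat (Ifit3, Oas2 and Samd9l) and 0 in each of the other comparisons. With 4 or 5 libraries a group, the median standard error of a member's log2 fold change was 0.22 to 0.23.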
